A study of Mus musculus with 96 samples.

Results

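The genes described here are 47 genes of DNA replication and S phase, the cell cycle stage in which a cell copies its genome. They were taken from a list of gene names, chosen with earlier results of these data known. Their contrast with all genes is therefore descriptive. Each gene was read from its brightest probe set, judged by the mean of the 96 arrays. All 47 were found among the 18193 genes of the array. Liver total RNA of CD-1 mice, an outbred stock, was hybridised to 96 arrays. Females and males were fed PB, which the labels do not spell out, for 2 or 7 days at 5 doses (0.15, 1.5 and 15, then 75 and 150) or went without it (dose 0), which makes 24 groups of 4 arrays. The dose unit is mg/kg-day in the design text and ppm in the sample titles, a conflict that the data do not settle, and mg/kg-day is used here. All groups share the strain, the tissue and the dietary route; the age and any pooling of animals are not given in the sources used here, nor is it stated that every array comes from its own mouse. The p-values therefore measure the spread between these samples, which may be technical. The series title places the work in a liver tumour pathway mediated by CAR, a nuclear receptor.

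A cell prepares its replication origins by placing the origin recognition complex, CDC6, CDT1 and the ring-shaped MCM helicase on DNA, a step called licensing, and geminin blocks a new round once copying has begun. The kinase CDC7 with its partner DBF4, and CDC45 with the GINS complex, then turn the MCM ring into a moving helicase. The primase and polymerase alpha lay the first primers, polymerases delta and epsilon extend them while held by the PCNA clamp, and flap nucleases and a ligase join the lagging-strand pieces. Most hepatocytes of an adult liver rest outside the cell cycle, and transcription factors of the E2F family are known to switch on many of these genes as cells enter S phase.

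Values are the authors' log2 expression values, so a difference of 1 is a doubling, and arrays give no counts; the number of arrays limits the precision. Hepatocyte markers stood near the top of the scale, with a mean over the 8 measured markers of 13.95 to 14.15 in every array. The library labelled male, day 2, dose 15, replicate 1 had 13.66 for Cyp2b10, the cytochrome P450 gene best known as a CAR target, against 11.07, 11.29 and 11.27 in the other 3 replicates. The library labelled male, day 2, dose 75, replicate 1 had 10.98, against 13.27, 13.19 and 13.36 in its other 3 replicates. Cyp2c55, a related P450 gene, stood apart in the same way, at 13.01 against 8.89 to 10.14 at dose 15 and at 9.82 against 12.54 to 12.74 at dose 75. Both libraries go against their labels, so the results for males at 15 and 75 on day 2 are given with and without them.

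At 150 on day 2 the replication genes rose together in both sexes. In females 38 of 47 rose and 0 fell, against 604 of 18193 genes that rose (3.32%) and 390 that fell (2.14%). In males 30 of 47 rose and 1 fell, against 455 genes that rose (2.5%) and 437 that fell (2.4%). The median log2 change of the 47 genes was 0.84 in females and 0.62 in males, whereas over all genes it was -0.03 in females and -0.02 in males. A gene is said to rise or fall where limma's adjusted p, over all 18193 genes, was under 0.05. All 4 arrays at 150 lay above all 4 at dose 0 for 34 of the 47 genes in females and 36 in males, against 4.54% and 4.26% of all genes. The groups of genes below include 30 that rose in both sexes, 8 that were called in females alone and 8 that were called in neither.

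The module score, the mean over the 47 genes of each array's log2 difference from the mean of all dose 0 arrays, gives the same picture per array. In females on day 2 it was 1.17, 1.16, 1.07 and 0.55 at 150, against 0.24, -0.10, -0.09 and 0.27 at dose 0. In males on day 2 it was 0.83, 0.78, 0.59 and 0.68 at 150, against -0.10, 0.03, -0.01 and -0.01 at dose 0. The groups did not overlap in either sex, and replicate 4 of the females at 150 was the lowest of its group by a wide gap; it had the lowest value of the group for 42 of the 47 genes. The mean score difference was 0.91 in females, and 0.85 to 1.06 with single arrays left out; in males it was 0.74, and 0.71 to 0.78.

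**Figure D1:**
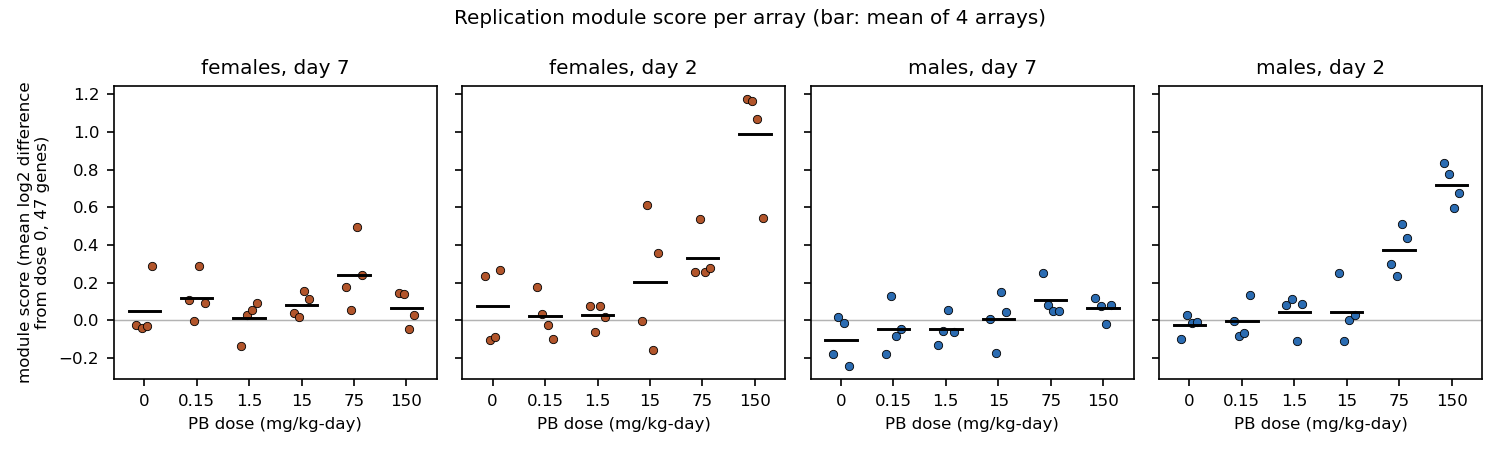
Module score per array on the vertical axis (mean log2 difference from dose 0 over the 47 genes) against PB dose in mg/kg-day, one panel per sex and day; each point is an array and each bar the mean of 4 arrays. On day 2 the arrays at 150 lie between 0.55 and 1.17 in females and between 0.59 and 0.83 in males, above all arrays at dose 0, whereas on day 7 no array at 150 exceeds 0.14.

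Of the 11 licensing genes, 10 rose in females and 9 in males. Mcm5, one of the 6 subunits of the MCM helicase ring, had 9.43, 9.25, 9.18 and 8.38 in females at 150, against 7.41, 6.04, 6.26 and 7.68 at dose 0. In males Mcm5 had 8.80, 8.60, 8.28 and 8.71 at 150, against 6.17, 6.62, 6.54 and 6.22 at dose 0. The groups were apart in both sexes, and the change was 2.21 ± 0.33 in females (SE; adjusted p = 5.17e-07) and 2.21 ± 0.33 in males (adjusted p = 9.96e-07). Mcm6, another ring subunit, had 10.06, 9.88, 9.6 and 9.22 in females at 150, against 8.03, 7.02, 7.08 and 8.30 at dose 0. Male Mcm6 values were 9.11, 9.34, 9.07 and 9.42 at 150, against 7.13, 7.88, 7.31 and 7.49 at dose 0. Again no array at 150 reached down to the dose 0 arrays, and Mcm6 rose by 2.08 ± 0.28 in females and 1.78 ± 0.28 in males. Mcm2, the ring subunit that also binds histones, had 8.64, 9.13, 9.6 and 8.04 in females at 150, against 7.91, 7.62, 7.66 and 8.0 at dose 0, and in males 9.03, 8.83, 8.36 and 9.03 at 150, against 7.79, 7.93, 7.73 and 7.70. The lowest female array at 150 lay just above the highest dose 0 array, and the change was 1.06 ± 0.17 in females and 1.02 ± 0.17 in males. The remaining ring subunits, Mcm3, Mcm4 and Mcm7, rose by 0.85, 1.21 and 1.10 in females and by 0.67, 0.95 and 0.62 in males.

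Gmnn encodes geminin, the inhibitor of CDT1. Its values were 9.39, 9.54, 9.75 and 8.84 in females at 150, against 8.62, 8.22, 8.23 and 8.59 at dose 0, and in males 9.07, 8.80, 9.14 and 8.76 at 150, against 7.73, 7.52, 8.18 and 8.34. No array overlapped, and Gmnn rose by 0.97 ± 0.18 in females (adjusted p = 7.89e-05) and by 1.0 ± 0.18 in males (adjusted p = 6.75e-05). Cdt1, the MCM loader that geminin holds back, rose by 1.07 ± 0.22 in females and 1.23 ± 0.22 in males. Cdc6, the second loader, averaged 4.72 at 150 against 3.24 at dose 0 in females and 4.34 against 3.24 in males. Its dose 0 level was dim (a group mean of 4.09 or below, the highest lower quartile of any array), so its rise is given as a bound, at least 1.55-fold in females and at least 1.19-fold in males. Of the 2 origin recognition subunits on the list, Orc6 rose by 0.53 ± 0.12 in females, where the arrays overlapped, and had 0.28 ± 0.12 in males (adjusted p = 0.205), while Orc1 had -0.10 ± 0.12 in females and -0.04 ± 0.12 in males.

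Among the 6 genes of origin firing and the helicase, 3 rose in females, and 2 rose and 1 fell in males. Dbf4, which activates the kinase CDC7, had 8.86, 8.83, 7.21 and 6.79 in females at 150, against 6.02, 5.51, 5.79 and 6.56 at dose 0, and in males 7.96, 7.67, 7.78 and 6.91 at 150, against 6.0, 6.32, 6.07 and 5.89. Replicates 1 and 2 of the females stood well above replicates 3 and 4, yet all 4 lay above dose 0; the change was 1.95 ± 0.35 in females (adjusted p = 3.6e-05) and 1.51 ± 0.35 in males (adjusted p = 0.00293). Gins2, a subunit of the GINS complex, had 8.16, 7.88, 7.38 and 6.62 in females at 150, against 6.04, 5.83, 5.64 and 6.26 at dose 0, and in males 7.44, 6.92, 6.98 and 6.77 at 150, against 5.76, 5.81, 5.88 and 5.69. The groups were apart, with a rise of 1.56 ± 0.18 in females and 1.24 ± 0.18 in males. Its partner subunit Gins1 rose by 0.72 ± 0.17 in females and had 0.47 ± 0.17 in males (adjusted p = 0.0897), with the male arrays at 150 all above dose 0. Cdc7, the kinase itself, had 0.02 ± 0.08 in females and 0.11 ± 0.08 in males, and Cdc45 had -0.03 ± 0.09 in both sexes.

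Mcm10, which links the helicase to polymerase alpha, went the other way. In males it had 9.25, 10.07, 9.26 and 9.38 at 150, against 10.81, 10.63, 9.98 and 10.72 at dose 0, and in females 8.57, 8.63, 8.93 and 8.45 at 150, against 8.89, 9.44, 9.79 and 9.05. Replicate 2 at 150 overlapped the lowest dose 0 array in males, and replicate 3 did so in females. It fell by 1.05 ± 0.32 in males (SE; adjusted p = 0.0369) and had -0.65 ± 0.32 in females (adjusted p = 0.294). The male call was kept without dose 0 replicate 3 or without replicate 2 at 150, and lost without any 1 of the other 6 arrays, where the largest adjusted p was 0.128. When all 45037 probe sets were tested in place of genes, this probe set had adjusted p = 0.0529, and the 2 other Mcm10 probe sets, which were dimmer, were not called. The call also ended with the mean of all its probe sets (-0.44; adjusted p = 0.128), with plain probe sets preferred (-0.46; adjusted p = 0.208) and when only the arrays of males on day 2 were fitted (adjusted p = 0.062). These data therefore hold 1 replication gene with a lower call, and that call rests on few arrays.

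Of the 7 polymerase and primase genes, 6 rose in females and 5 in males. Prim1, the catalytic primase subunit, had 9.02, 8.97, 8.51 and 7.89 in females at 150, against 7.83, 7.35, 7.09 and 7.66 at dose 0, and in males 8.38, 8.29, 7.99 and 8.22 at 150, against 7.12, 7.10, 7.15 and 7.55. It rose by 1.11 ± 0.18 in females and 0.99 ± 0.18 in males, and the arrays did not overlap. Pole, the catalytic subunit of polymerase epsilon, which copies the leading strand, had 6.82, 6.59, 6.41 and 5.89 in females at 150, against 5.62, 4.95, 5.06 and 5.46 at dose 0, and in males 6.05, 6.10, 6.0 and 5.99 at 150, against 5.25, 5.12, 4.83 and 5.04. The rise was 1.15 ± 0.16 in females and 0.97 ± 0.16 in males, again with the groups apart. Pola1, the catalytic subunit of polymerase alpha, had 7.66, 7.75, 7.37 and 7.19 in females at 150, against 6.74, 6.61, 6.44 and 6.82 at dose 0, and in males 7.00, 6.80, 7.04 and 7.00 at 150, against 5.76, 6.11, 6.25 and 6.52. All treated arrays were above their controls, and the change was 0.84 ± 0.14 in females and 0.80 ± 0.14 in males. Pole2, the second subunit of polymerase epsilon, rose by 0.79 and 0.69, and Prim2, the large primase subunit, by 0.59 and 0.42, in females and males in turn. Pold1, the catalytic subunit of polymerase delta, rose by 0.30 ± 0.09 in females (adjusted p = 0.0367) and had 0.09 ± 0.09 in males. Pola2, the regulatory subunit of polymerase alpha, had 0.25 ± 0.08 in females (adjusted p = 0.0622) and 0.01 ± 0.08 in males.

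All 7 genes of the clamp, its loader and the single-strand binding protein rose in females, and 5 rose in males. Pcna, the sliding clamp and a standard marker of S phase cells, had 11.69, 11.47, 11.34 and 10.92 in females at 150, against 10.34, 10.17, 9.85 and 10.50 at dose 0, and in males 11.18, 11.04, 10.77 and 11.07 at 150, against 9.98, 10.08, 10.03 and 9.91. The groups were apart, and the rise of 1.14 ± 0.12 in females gave the lowest adjusted p among them (1.76e-11); in males Pcna rose by 1.02 ± 0.12 (adjusted p = 6.01e-10). Rfc4, a subunit of the clamp loader RFC, had 7.95, 7.99, 7.73 and 7.13 in females at 150, against 6.83, 6.60, 6.35 and 6.78 at dose 0, and in males 7.46, 7.16, 7.24 and 7.34 at 150, against 6.40, 6.73, 6.24 and 6.55. It rose by 1.06 ± 0.15 in females and 0.82 ± 0.15 in males without overlap. Rpa1, the large subunit of the single-strand binding protein, had 10.66, 10.60, 10.54 and 10.25 in females at 150, against 9.89, 9.73, 9.68 and 10.09 at dose 0, and in males 10.14, 10.29, 10.09 and 10.13 at 150, against 9.64, 9.77, 9.75 and 9.78. Its rise was smaller but without overlap, 0.66 ± 0.09 in females and 0.43 ± 0.09 in males. Rpa2, the middle subunit, rose by 0.61 and 0.50, and the loader subunit Rfc3 by 0.58 and 0.56, in females and males in turn. The loader subunits Rfc5 and Rfc2 rose by 0.58 and 0.29 in females, and had 0.37 (adjusted p = 0.14) and 0.14 (adjusted p = 0.433) in males.

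Of the 3 genes for flap removal and ligation, Lig1 rose in both sexes. Lig1, the ligase that seals Okazaki fragments, had 8.63, 8.35, 7.99 and 7.78 in females at 150, against 6.86, 6.44, 6.44 and 6.80 at dose 0, and in males 7.22, 7.45, 7.71 and 7.71 at 150, against 6.06, 6.58, 6.27 and 6.08. No array overlapped, and the change was 1.56 ± 0.18 in females (adjusted p = 5.93e-10) and 1.27 ± 0.18 in males (adjusted p = 2.31e-07). Fen1, the flap endonuclease, had 0.22 ± 0.12 in females and 0.30 ± 0.12 in males (adjusted p = 0.389 and 0.171), and Exo1, an exonuclease of mismatch repair, had 0.13 ± 0.11 and 0.26 ± 0.11.

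Among the 5 genes of nucleotide supply, 4 rose in females and 3 in males. Rrm2, the regulated subunit of ribonucleotide reductase, which makes deoxynucleotides, had 9.46, 9.28, 8.80 and 7.68 in females at 150, against 6.51, 5.92, 5.27 and 6.88 at dose 0. Male Rrm2 values were 8.59, 9.0, 8.69 and 8.52 at 150, against 5.31, 5.96, 6.12 and 5.96 at dose 0. These were the largest changes among the 47 genes in each sex, 2.66 ± 0.32 in females (adjusted p = 3.52e-09) and 2.86 ± 0.32 in males (adjusted p = 3.23e-10), or 6.32-fold and 7.27-fold, with the groups far apart. Its partner subunit Rrm1 rose by 0.71 ± 0.10 and 0.57 ± 0.10. Dut, which removes dUTP from the nucleotide pool, had 8.83, 8.92, 8.87 and 8.24 in females at 150, against 8.16, 7.68, 7.86 and 8.05 at dose 0, and in males 8.52, 8.48, 8.59 and 8.47 at 150, against 7.57, 8.15, 8.03 and 8.06. The change in Dut was 0.78 ± 0.14 in females and 0.57 ± 0.14 in males; replicate 4 of the females was low, yet above dose 0. Tk1, the thymidine kinase of S phase, rose by 0.88 ± 0.19 in females, where 1 or more arrays overlapped, and had 0.56 ± 0.19 in males (adjusted p = 0.0844). Tyms, the thymidylate synthase gene, was dim in every group compared (3.55 to 3.6 on day 2), so its level was not shown above background and no fold is given.

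Of the 5 checkpoint and repair genes, 4 rose in females and 3 in males. Fignl1, an ATPase of recombination repair, had 6.96, 7.26, 7.40 and 5.79 in females at 150, against 4.51, 4.04, 4.06 and 4.97 at dose 0, and in males 6.61, 5.80, 5.70 and 6.08 at 150, against 3.84, 4.24, 4.13 and 4.00. The rise was 2.46 ± 0.29 in females (adjusted p = 1.84e-09); in males, whose dose 0 mean was dim, it was at least 3.90-fold (adjusted p = 8.20e-07). Chek1, the kinase that answers to stalled forks, had 7.26, 6.85, 7.38 and 6.23 in females at 150, against 5.17, 4.80, 4.45 and 5.0 at dose 0, and in males 6.36, 6.62, 6.16 and 6.75 at 150, against 5.38, 5.01, 5.10 and 5.08. Both genes had all treated arrays above the controls, and Chek1 rose by 2.07 ± 0.22 in females and 1.33 ± 0.22 in males; read from the probe set preferred for single transcripts, it had -0.046 and -0.18, while another probe set of that kind, dim at dose 0, was at least 2.5-fold higher in females and at least 2.1-fold higher in males. Brca2, a gene of recombination repair, rose by 0.65 and 0.43. Brca1, a repair gene that acts with it, rose by 0.96 ± 0.23 in females and had 0.71 ± 0.23 in males (adjusted p = 0.0534). Dclre1a, a nuclease of crosslink repair, had 7.21, 7.33, 7.62 and 7.05 in females at 150, against 7.06, 7.20, 7.13 and 7.33 at dose 0, and in males 7.38, 7.17, 7.25 and 7.10 at 150, against 7.20, 6.91, 7.06 and 7.39. Those groups overlapped, with 0.12 ± 0.16 in females and 0.09 ± 0.16 in males.

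All 3 genes that copy DNA methylation or serve S phase chromatin rose in females, and 2 rose in males. Uhrf1, which recognises newly copied half-methylated DNA, had 5.71, 5.92, 6.0 and 5.28 in females at 150, against 4.46, 3.72, 4.07 and 4.46 at dose 0, and in males 5.88, 6.02, 5.33 and 5.64 at 150, against 4.18, 4.29, 4.37 and 4.25. It rose by 1.55 ± 0.22 in females and 1.44 ± 0.22 in males, without overlap. Tcf19, a chromatin-associated gene that was first known for its expression at the G1 to S transition, had 8.83, 8.76, 8.31 and 7.64 in females at 150, against 7.36, 6.25, 6.58 and 7.23 at dose 0, and in males 8.02, 8.4, 7.68 and 7.80 at 150, against 6.64, 6.48, 6.71 and 6.60. The groups were again apart, with a rise of 1.53 ± 0.21 in females and 1.37 ± 0.21 in males. Dnmt1, the maintenance methyltransferase that UHRF1 recruits, rose by 0.48 ± 0.11 in females and had 0.30 ± 0.11 in males (adjusted p = 0.0812).

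**Figure D2:**
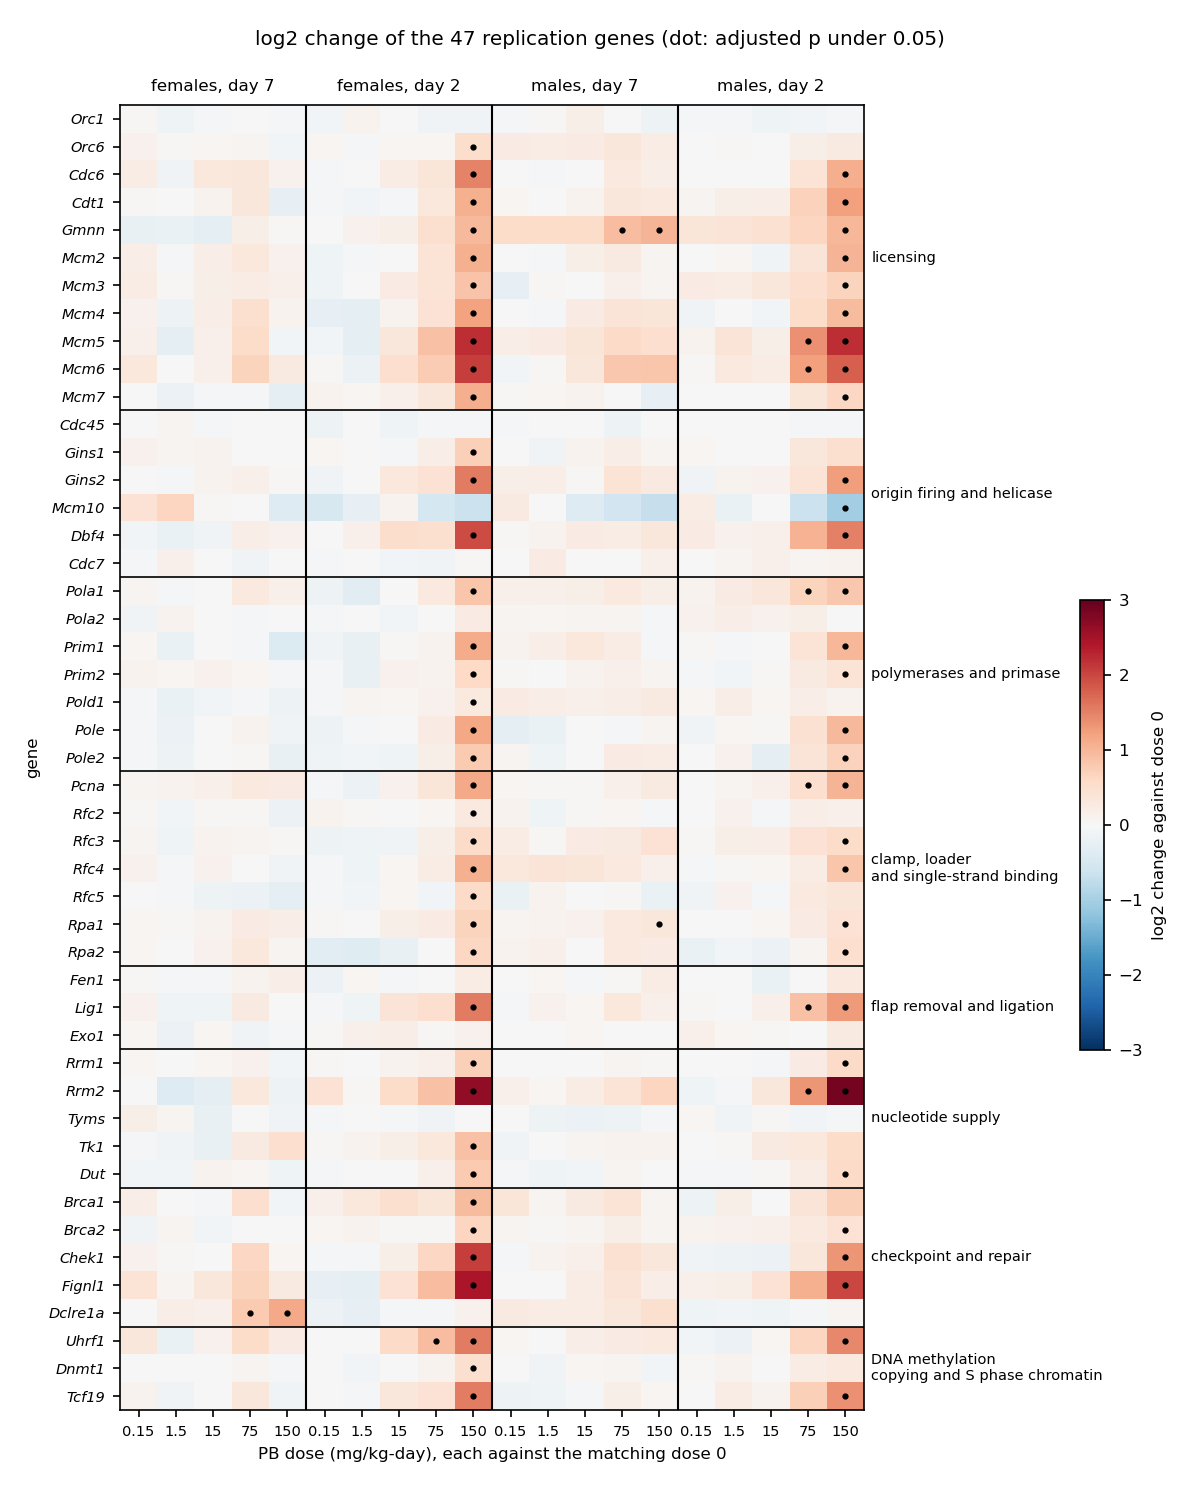
Heat map of the log2 change from the matching dose 0 group (colour scale from -3 to 3) for the 47 genes, ordered by role, over 5 doses in mg/kg-day in each of 4 sex and day panels; a dot marks adjusted p under 0.05. The columns at 150 on day 2 hold 38 dots in females and 31 in males, and the columns at 150 on day 7 hold 1 dot in females and 2 in males.

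A few called members depended on 1 array. In females 34 of the 38 rises were called in all 8 refits that each left out 1 array; Pold1 was lost without dose 0 replicate 2 or 4 or without replicate 1, 2 or 3 at 150, Rfc2 without dose 0 replicate 1, 2 or 3 or without replicate 1 at 150, Rfc3 without dose 0 replicate 3, and Rfc5 without replicate 1 or 2 at 150. In males 25 of the 31 calls were kept in all 8 refits. Of the others, Rfc3 and Dut were lost without dose 0 replicate 1, and Brca2 without dose 0 replicate 3 or 4 or without replicate 1 at 150. Rpa2 was lost without dose 0 replicate 2, 3 or 4 or without replicate 1 or 4 at 150, and Prim2 in 7 of the 8 refits, all but that without dose 0 replicate 4. Other settings ended a few calls. Fitting only the arrays of the sex and day compared ended those of Pold1, Rfc2 and Rfc3 in females and Brca2 in males, and the replicate block also ended that of Pold1. Preferring plain probe sets ended that of Dut in both sexes and Rpa1 in males, and the mean of all probe sets ended that of Prim2 in males. With single arrays left out, the count of called members stayed between 35 and 39 in females and between 27 and 30 in males.

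The promoter sequences of the genes with the largest rises, and of Mcm10, are printed because E2F factors bind short letters that a reader can look for in them. RefSeq windows of the assembly GRCm38.p6, from 250 bases before to 50 bases after a start site, were matched for 39 of the 47 genes. Capitals mark the letters TTCCCGC or TTCGCGC as well as TTGCCGC or TTGGCGC on either strand, where overlapping matches were each counted and TTGGCGC can share bases with a CCAAT box. Rrm2 lies at chr12:24708004-24708303 on the plus strand, Fignl1 at chr11:11808913-11809212 on the minus strand, Mcm5 at chr8:75109259-75109558 on the plus strand, Mcm6 at chr1:128359656-128359955 on the minus strand, and Mcm10 at chr2:5012742-5013041 on the minus strand.
Rrm2: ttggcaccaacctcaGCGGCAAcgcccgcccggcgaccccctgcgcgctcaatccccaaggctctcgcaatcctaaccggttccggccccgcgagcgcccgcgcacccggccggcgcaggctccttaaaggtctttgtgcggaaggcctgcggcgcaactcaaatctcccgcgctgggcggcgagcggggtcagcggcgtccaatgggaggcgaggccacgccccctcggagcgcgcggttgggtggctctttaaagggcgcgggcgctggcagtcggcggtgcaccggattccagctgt
Fignl1: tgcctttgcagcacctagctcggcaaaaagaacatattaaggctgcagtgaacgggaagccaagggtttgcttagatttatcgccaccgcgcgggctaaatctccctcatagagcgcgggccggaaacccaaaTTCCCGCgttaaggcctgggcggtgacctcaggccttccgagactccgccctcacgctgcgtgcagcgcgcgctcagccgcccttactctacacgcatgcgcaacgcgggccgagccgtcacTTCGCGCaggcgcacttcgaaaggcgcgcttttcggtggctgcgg
Mcm5: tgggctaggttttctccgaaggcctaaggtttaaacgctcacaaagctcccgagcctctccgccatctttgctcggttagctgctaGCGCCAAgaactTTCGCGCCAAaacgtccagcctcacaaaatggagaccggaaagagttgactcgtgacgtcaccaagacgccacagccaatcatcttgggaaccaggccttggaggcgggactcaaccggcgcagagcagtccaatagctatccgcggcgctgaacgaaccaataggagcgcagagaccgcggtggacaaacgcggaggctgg
Mcm6: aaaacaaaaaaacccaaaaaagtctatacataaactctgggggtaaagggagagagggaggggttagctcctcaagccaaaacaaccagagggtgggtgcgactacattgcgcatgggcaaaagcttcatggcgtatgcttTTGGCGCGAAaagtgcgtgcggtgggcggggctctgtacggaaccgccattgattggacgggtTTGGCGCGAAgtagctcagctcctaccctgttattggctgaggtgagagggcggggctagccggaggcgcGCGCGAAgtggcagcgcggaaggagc
Mcm10: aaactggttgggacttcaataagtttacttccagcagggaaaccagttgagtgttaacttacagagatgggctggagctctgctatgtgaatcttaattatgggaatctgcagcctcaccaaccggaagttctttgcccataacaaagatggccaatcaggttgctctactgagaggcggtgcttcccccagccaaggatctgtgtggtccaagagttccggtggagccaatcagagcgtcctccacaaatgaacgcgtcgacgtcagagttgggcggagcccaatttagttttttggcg

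In these windows Mcm6 had 5 matches, Mcm5 3, Fignl1 2 and Rrm2 1, and Mcm10 had none. Over the 39 genes with a window, 27 held at least 1 match (69.2%), against 2301 of 14369 array genes (16%) and 2936 of 27025 genes in all (10.9%). Their windows had a median GC content of 57.7%, close to 58.3% over the array genes. A match was found in 20 of 25 genes that rose in both sexes, in 3 of 6 called in females alone and in 4 of 7 called in neither. This split rests on the probe set used for each gene. Of the genes called in neither, Fen1 and Cdc7, with a match, and Cdc45, without, rose at a second probe set in 1 or both sexes. Dbf4, Dut, Mcm2, Pcna and Rpa1 rose in both sexes without a match in these windows. CCAAT boxes were found in 53.8% of the genes, against 42.0% of array genes, and the letters TTTGAA in 17.9%, against 15.7%. A match describes letters in a window, and binding was not measured.

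Several genes that did not pass at the probe set used had a second, dimmer probe set that rose when all 109 probe sets of the 47 genes were tested. Fen1 had 1.14 in females and 0.92 in males at its second probe set, whose mean over all arrays was 5.62, against 9.72 for the one used. Cdc45 had 0.50 and 0.38 at its second probe set. Second probe sets of Exo1 and Cdc7 were dim at dose 0, and were at least 1.4-fold (females) and 1.14-fold (males) higher for Exo1 and at least 1.06-fold higher in females for Cdc7. In all, 66 of the 109 probe sets rose in females, against 2.18% of all 45037, and 55 rose in males, against 1.56%. None fell in either sex, against 1.19% of all probe sets in females and 1.21% in males. At least 1 probe set rose for 42 of the 47 genes in females and 33 in males, against 3.63% and 2.67% of all genes, so the counts of 38 and 30 depend on which probe set speaks for a gene.

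**Figure D3:**
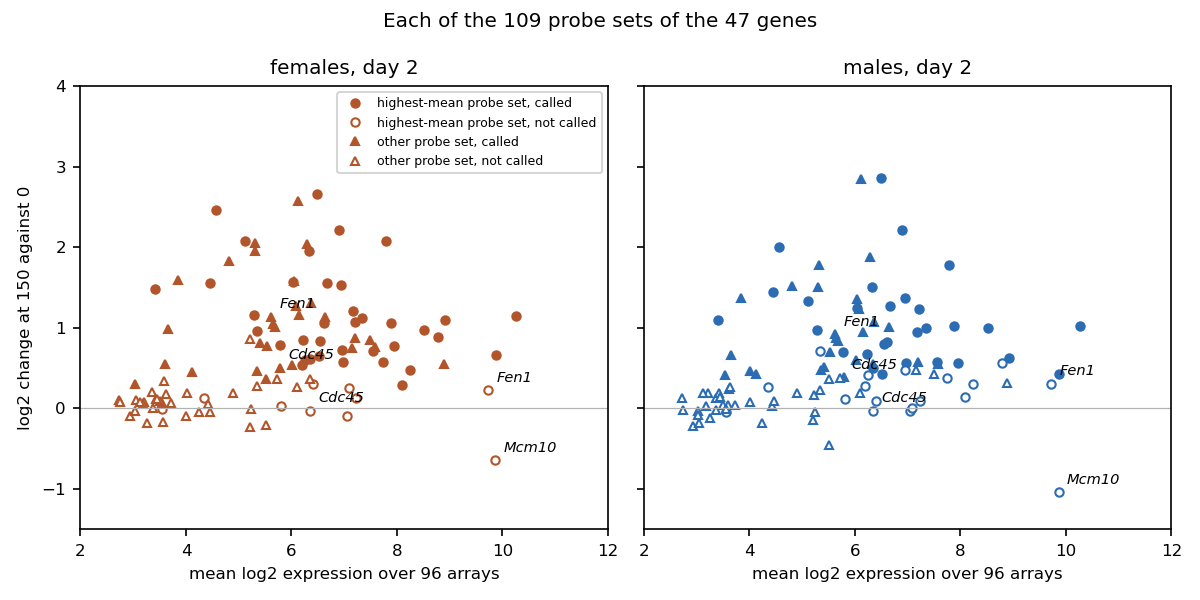
Log2 change at 150 against 0 on day 2 for each of the 109 probe sets (vertical axis) against its mean log2 expression over 96 arrays (horizontal axis), females on the left and males on the right; circles are the highest-mean probe sets and triangles the others, filled where adjusted p over all probe sets was under 0.05. Filled symbols lie above 0 throughout, Fen1 shows a called dim probe set beside an uncalled bright one, and Mcm10 lies lowest.

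At 75 on day 2 few genes passed, although most leaned upward. In females 1 of 47 rose, against 0.308% of all genes, and in males 6 of 47, against 0.363%. The score was 0.26, 0.54, 0.26 and 0.28 in females at 75; in males it was 0.30, 0.24, 0.51 and 0.44. In both sexes the score therefore lay between the means at dose 0 and 150, though the female arrays at 75 overlapped those at dose 0. The median change at 75 of the genes that rose at 150 was 0.31 in females and 0.45 in males (0.49 without the 2 libraries that go against their labels). Each of them had a smaller change at 75 than at 150, but they were picked by their call at 150, which favours a larger change there. Over all 47 genes the median change at 75 was 0.21 in females and 0.35 in males, against 0.84 and 0.62 at 150. Uhrf1 was the gene called in females, with 5.01, 5.47, 5.05 and 4.86 at 75, against 4.46, 3.72, 4.07 and 4.46 at dose 0, a change of 0.92 ± 0.22 (adjusted p = 0.0213). It was lost, leaving 0 calls, without dose 0 replicate 2 or 3 or without replicate 2 at 75. The call also ended when only the arrays of females on day 2 were fitted and with the mean of all probe sets.

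In males the 6 genes at 75 were Mcm5, Mcm6, Pola1, Pcna, Lig1 and Rrm2. Rrm2 had 6.5, 6.91, 7.35 and 7.89 at 75, against 5.31, 5.96, 6.12 and 5.96 at dose 0, and Mcm5 had 7.44, 7.52, 7.96 and 8.12, against 6.17, 6.62, 6.54 and 6.22. Both were above all controls, with 1.32 ± 0.32 for Rrm2 and 1.37 ± 0.33 for Mcm5. Mcm6 had 8.57, 8.55, 8.82 and 8.81 (1.23 ± 0.28), and Lig1 had 7.04, 6.96, 7.42 and 7.06 (0.87 ± 0.18). Pola1 had 6.67, 6.89, 6.99 and 6.77 (0.67 ± 0.14), and Pcna had 10.39, 10.31, 10.66 and 10.64 (0.50 ± 0.12). The first value of each is from the library that goes against its label; without it and its counterpart at dose 15, the changes were 1.54 for Rrm2, 1.48 for Mcm5, 1.27 for Mcm6, 0.89 for Lig1, 0.72 for Pola1 and 0.54 for Pcna. Fignl1 was then called as well, which made 7 genes, and the mean score at 75 was 0.40, against 0.37 with it. The count became 1 without dose 0 replicate 1, 0 when replicate 3 at 75 was left out and 2 when its replicate 4 was.

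Set directly against 75, the dose of 150 gave 28 of 47 higher calls in females, against 1.2% of all genes, and 4 in males, against 0.0989%. In females Rrm2 was 1.79 higher, Fignl1 1.53 and Chek1 1.45 on the log2 scale. That count was 16 without replicate 1 at 150 and 15 without replicate 2, and 3 when only the arrays of females on day 2 were fitted. In males the 4 genes were Rrm2 (1.54), Chek1 (0.98), Gins2 (0.83) and Pcna (0.51). Without the 2 libraries that go against their labels, these were 1.32, 0.84, 0.75 and 0.48, and none was called. The male count was also 0 without replicate 1 at 150 or without replicate 1 or 2 at 75. It was 1 when replicate 2 at 150 was left out and 2 when replicate 4 of that dose was.

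At 0.15, 1.5 and 15, limma called 0 of 47 genes in each of the 12 comparisons with dose 0. The smallest adjusted p was 0.548, and between 0 and 4 genes per comparison had an unadjusted p under 0.05; of all genes, 0.022% were called at 15 in females on day 2, 0.0385% at 15 in males on day 2, 0.022% at 15 in females on day 7, 0.011% at 15 in males on day 7 and 0.0055% at 0.15 in males on day 7, and 0% in the other 7. The female day 2 arrays at 15 were far apart, with scores between -0.16 and 0.61 (median 0.18), and Rrm2 at 6.17, 7.78, 5.47 and 7.34. In males at 15 the score was 0.25 in the library that goes against its label and between -0.11 and 0.03 in the others, so the mean was 0.04 with it and -0.03 without it; without both such libraries 0 genes were called in males at 15.

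**Figure D4:**
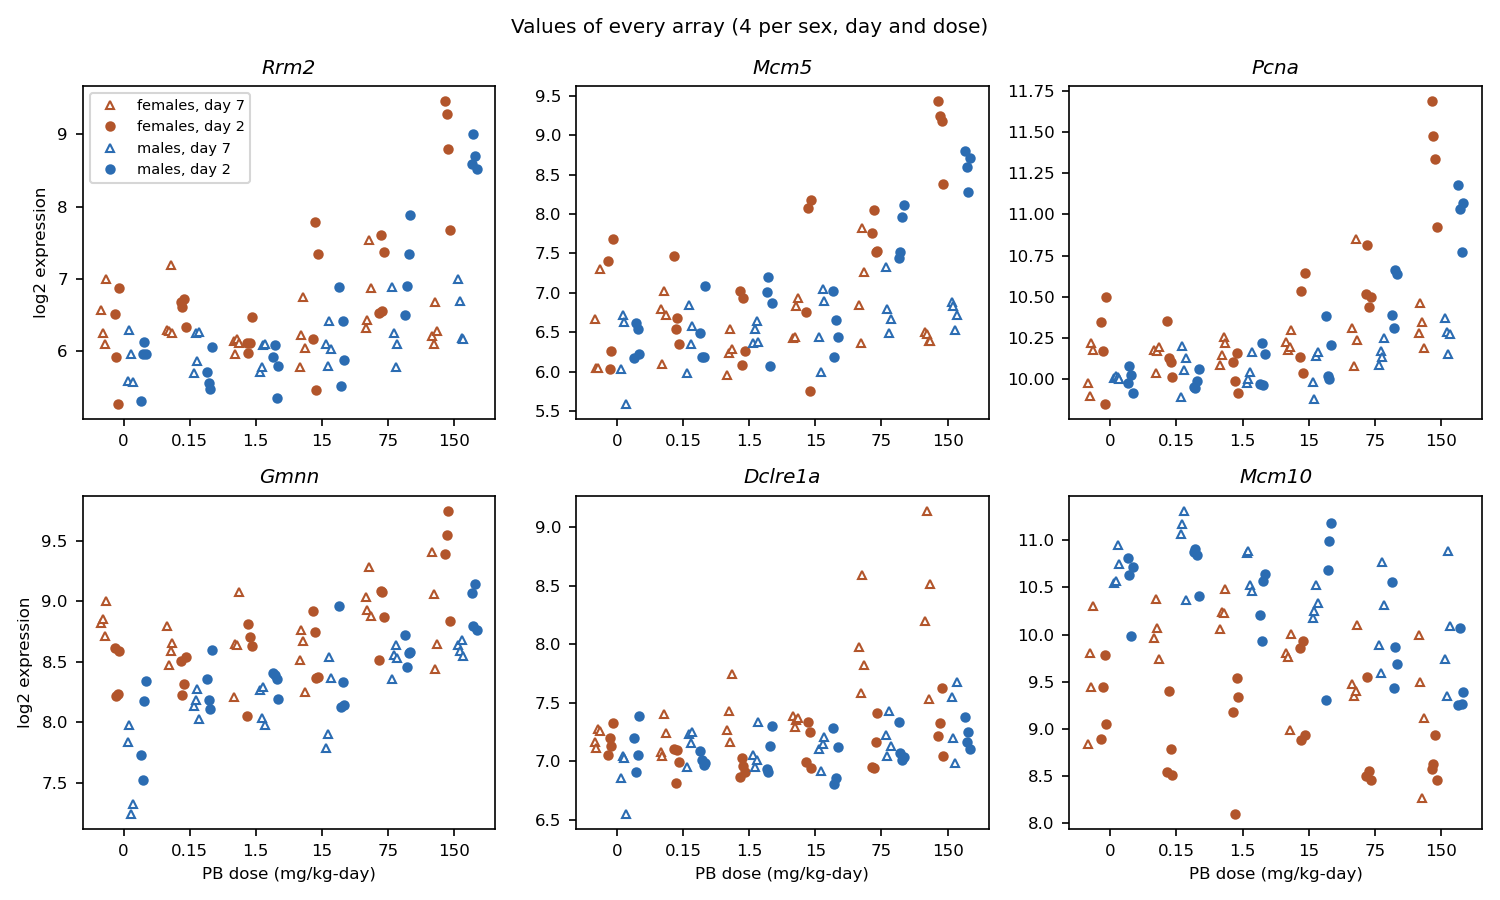
Log2 expression of Rrm2, Mcm5, Pcna, Gmnn, Dclre1a and Mcm10 in every array (vertical axis) against PB dose in mg/kg-day, with circles for day 2, open triangles for day 7, brown for females and blue for males. Rrm2, Mcm5 and Pcna reach their highest values at 150 on day 2, Dclre1a is high in females at 75 and 150 on day 7, and Gmnn is lowest in males at dose 0.

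On day 7 the same dose left few calls among these genes. In females 1 of 47 rose, against 1.52% of all genes, and in males 2, against 2.2%. The score at 150 was 0.14, 0.14, -0.05 and 0.03 in females, against -0.02, -0.04, -0.03 and 0.29 at dose 0, and in males it was 0.12, 0.07, -0.02 and 0.08, against -0.18, 0.02, -0.01 and -0.24. The groups overlapped in both sexes. Of the 38 genes that had risen in females on day 2, all had overlapping arrays on day 7, with changes between -0.42 and 0.51, and 19 of them lay below 0. Of the 30 in males, 26 had overlapping arrays, with changes between -0.25 and 1.02, and 3 lay below 0. The median change of all 47 genes on day 7 was -0.018 in females and 0.15 in males. Over all genes, every array at 150 lay above every dose 0 array on day 7 for 4.31% in females and 5.13% in males. At 75 on day 7 the score was 0.18, 0.06, 0.50 and 0.24 in females, with a mean of 0.24, against 0.07 at 150. Replicate 3 had the highest value of that female group for 37 of the 47 genes, so its mean rests largely on 1 array. In males at 75 the score was 0.25, 0.08, 0.05 and 0.05, with a mean of 0.11, against 0.06 at 150. The arrays at 75 overlapped dose 0 in females and lay above all dose 0 arrays in males.

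The genes called on day 7 were Dclre1a in females and Gmnn and Rpa1 in males. Dclre1a had 8.20, 9.14, 7.53 and 8.51 in females at 150, against 7.16, 7.12, 7.28 and 7.26 at dose 0. Every treated array was above every control, though they spread widely, and the gene rose by 1.14 ± 0.16 (adjusted p = 5.63e-07). At 75 it had 7.97, 7.58, 8.59 and 7.82, a rise of 0.79 ± 0.16 (adjusted p = 0.00377), against 0.44% of all genes called higher; leaving out replicate 3 of that dose lost the call, as did fitting only the arrays of females on day 7 or taking the mean of all probe sets, and leaving out its replicate 2 gave 2 calls. In males on day 7 Dclre1a had 7.55, 7.20, 6.99 and 7.68 at 150, against 6.86, 7.04, 7.03 and 6.55, and 0.48 ± 0.16 (adjusted p = 0.0907). Without male replicate 3 at 150 it was called, and without female replicate 3 at 150 Tk1 joined it among the female calls. The rise belongs to its brightest probe set: the 2 other Dclre1a probe sets had 0.08 and -0.07 in females on day 7.

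Gmnn had 8.64, 8.59, 8.68 and 8.55 in males on day 7 at 150, against 7.83, 7.98, 7.24 and 7.32 at dose 0, a rise of 1.02 ± 0.18 (adjusted p = 6.09e-05). At 75 it had 8.36, 8.56, 8.64 and 8.53 (0.93 ± 0.18; adjusted p = 0.00174; 0.247% of all genes called higher). The arrays at 75 and 150 were tightly grouped and the dose 0 arrays were not. At 15 on day 7 male Gmnn had 0.56 ± 0.18 against the same dose 0 arrays, with overlap and no call (adjusted p = 0.736). In females on day 7 Gmnn had 9.40, 9.06, 8.44 and 8.64 at 150, against 8.82, 8.86, 8.71 and 9.0, with no call. Rpa1 had 9.99, 9.98, 9.87 and 9.85 in males at 150, against 9.55, 9.68, 9.69 and 9.46, a rise of 0.33 ± 0.09 (adjusted p = 0.0312). That call was lost without dose 0 replicate 1 or 4 or without replicate 1 or 2 at 150. It also ended with array weights, with the mean of all probe sets, with plain probe sets preferred and when only the arrays of males on day 7 were fitted, with adjusted p between 0.053 and 0.453.

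The response at 150 was compared between the days within 1 fit. In females the response on day 7 was lower than on day 2 for 25 of 47 genes and higher for 1, against 0.797% and 0.077% of all genes. The difference, day 7 minus day 2, was -2.82 ± 0.46 for Rrm2 (SE; adjusted p = 7.43e-05), -2.29 for Mcm5, -2.0 for Chek1, -1.82 for Dbf4 and -1.81 for Mcm6. Fignl1 was also lower (adjusted p = 0.000713), with no size given because its dose 0 mean on day 7 was dim. The female count of 26 was 16 when only the arrays of females were fitted. Dclre1a was the gene with a higher response on day 7, by 1.02 ± 0.23 (adjusted p = 0.00751). In males 5 genes had a lower response on day 7, against 0.0495% of all genes, and 0 a higher one, against 0.0824%: Rrm2 (-2.21 ± 0.46), Tcf19 (-1.31 ± 0.30), Lig1 (-1.13 ± 0.25), Pcna (-0.75 ± 0.17) and Fignl1 (adjusted p = 0.0372), whose dose 0 mean on day 2 was dim, so that no size is given. The male count was 0 without day 2 dose 0 replicate 1, 1 without day 2 dose 0 replicate 3, day 7 dose 0 replicate 3 or day 7 replicate 2 at 150, 2 without day 2 dose 0 replicate 4 or day 2 replicate 1 or 4 at 150, and 3 without day 7 dose 0 replicate 2 or day 7 replicate 1 at 150. It was 13 when only the arrays of males were fitted, so the number of male genes is uncertain, while Gmnn, at 1.02 on day 7 and 1.0 on day 2 in males, differed little between the days.

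**Figure D5:**
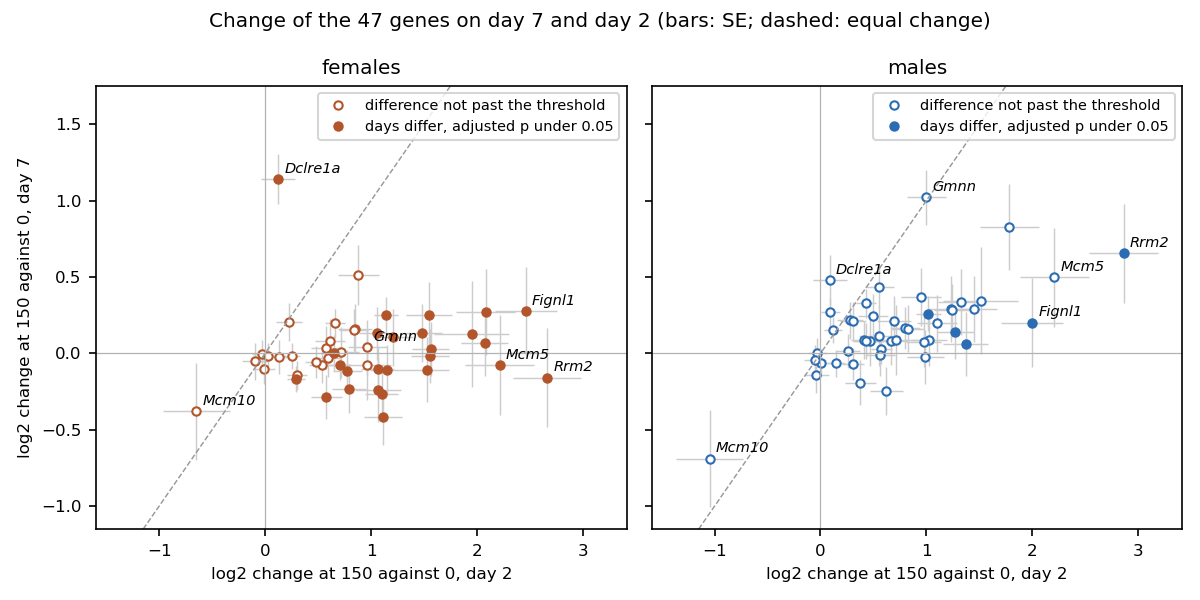
Log2 change at 150 against 0 on day 7 (vertical axis) against the change on day 2 (horizontal axis) for the 47 genes, females on the left and males on the right; bars are the SE, the dashed line marks an equal change, and filled points are genes whose 2 changes differed with adjusted p under 0.05. Most points lie far below the line near a day 7 change of 0, whereas Dclre1a in females lies above it and Gmnn in males lies on it.

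The response at 150 was also compared between the sexes, and limma called 0 of the 47 genes on day 2 and on day 7. Of them, 3 had an unadjusted p under 0.05 on day 2 and 4 on day 7, and of all genes 0.0055% and 0.0879% were called. On day 2 the rise was larger in females for 27 of the 30 genes that rose in both sexes, and the differences (females minus males) over the 47 genes ran from -0.20 to 0.74. The largest was that of Chek1, 0.74, with a 95% interval of 0.13 to 1.36. For the 8 genes called in females alone, the difference was between 0.15 and 0.32, and its interval held 0 for each; Brca1, for example, had 0.25 (-0.40 to 0.89). A call in 1 sex alone therefore does not show a difference between the sexes here, and intervals this wide do not exclude one. On day 7 Gmnn had -0.98 (-1.49 to -0.47; adjusted p = 0.21), and Dclre1a had 0.66 (0.20 to 1.12; adjusted p = 0.877). Without female replicate 1 or 3 at 150 on day 7, 1 gene was called.

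Untreated livers differed between the sexes for a few of these genes. On day 2, 2 of 47 were higher (4.26%) and 1 lower in females than in males at dose 0, against 1.09% and 0.962% of all genes. On day 7, 5 were higher (10.6%) and 1 lower, against 4.63% and 2.08%. The share of 1 lower gene in 47 on day 7 is near that of all genes. With counts this small, no share is read as particular to these genes. Cdt1 averaged 7.38 in females and 6.60 in males on day 2 (difference 0.78 ± 0.22), and 7.53 in females and 6.58 in males on day 7 (0.95 ± 0.22). Mcm10 averaged 9.29 in females and 10.54 in males on day 2 (-1.24 ± 0.32), and 9.6 in females and 10.70 in males on day 7 (-1.11 ± 0.32). Both genes thus kept their direction on both days at the probe set used. On day 2 at dose 0 a second Cdt1 probe set averaged 6.48 in females and 6.17 in males, and a second Mcm10 probe set 5.42 and 5.79. The remaining probe set of each gene was dim. Fewer genes were called at dose 0 with the mean of all probe sets or with plain probe sets preferred. Gmnn averaged 8.85 in females and 7.59 in males on day 7 (1.25 ± 0.18; adjusted p = 3.87e-07). The other genes called were Pola1 on day 2 (0.49), and Brca1 (0.89), Brca2 (0.42) and Pold1 (0.33) on day 7. Between day 7 and day 2 at dose 0, limma called 0 of 47 genes in either sex, with 2 genes at an unadjusted p under 0.05 in each and 0.0165% of all genes called in females and 0% in males.

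Further genes of the pathway, outside the 47, were read from lists of E2F and RB proteins, S phase cyclins, other fork factors, nucleotide enzymes, chromatin assembly and repair, of which 99 of 105 were measured. At 150 on day 2, 37 of the 99 rose in females, against 3.32% of all genes, and 22 of the 99 in males, against 2.5%. In both sexes 0 fell, against 2.14% of all genes in females and 2.4% in males. At 150 on day 7, 2 of the 99 rose in females, a share near the 1.52% of all genes. In males 7 of the 99 rose on day 7, against 2.2% of all genes. Esco2, which acetylates cohesin during S phase, was at least 5.13-fold higher in females and at least 4.96-fold higher in males, its dose 0 mean being dim. Ccna2, the S phase cyclin A2, rose by 2.79 in females and 2.34 in males, and Cdca5, which stabilises cohesin on copied DNA, by 2.34 and 1.79. Pclaf, a PCNA-binding protein, rose by 1.50 and 1.33, and Asf1b, a histone chaperone, by 1.44 and 1.13. Ccne2, the cyclin E2 gene, was at least 1.98-fold and at least 1.66-fold higher. Among the 13 E2F and RB genes, 5 rose in females and 1 in males. The median change over all 99 genes was 0.24 in females and 0.18 in males, beside 0.84 and 0.62 for the 47.

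Markers of other liver cells were read beside these results. In bulk tissue, more cells of a kind and more RNA per cell cannot be told apart. At 150 on day 2, 0 of 11 measured erythroid markers were called in either sex, and 3 of them (Hba-a1, Hemgn and Rhag) were dim; their summed level ran from 10.39 to 10.89 in females at 150, against 9.77 to 10.80 at dose 0, and from 11.02 to 11.72 in males, against 11.06 to 11.38. Of 10 lymphocyte markers 0 were called on day 2, and of 10 Kupffer cell markers 0. Of 8 neutrophil markers, S100a8 rose by 2.83 in females, and their summed level ran from 9.92 to 11.09 at 150, against 8.61 to 9.90 at dose 0; in males it ran from 8.65 to 10.83, against 8.82 to 9.31. Of 10 endothelial markers, Stab2 and Clec4g fell in females and Clec4g in males, and of 8 hepatocyte markers Apob and Ahsg fell in males, by 0.16 and 0.21. Of 8 stellate cell markers 0 were called, though their mean level was lower without overlap, at 8.96 to 9.0 in females at 150, against 9.14 to 9.28 at dose 0, and 8.82 to 8.91 in males, against 8.96 to 9.18. Summed hepatocyte levels ran from 17.09 to 17.15 in females at 150, against 17.18 to 17.23, and from 17.12 to 17.15 in males, against 17.18 to 17.22. The part of these markers in the rise of the replication genes was not tested.

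On day 7, when most replication genes were not called, other markers moved. Alas2 and Tfrc, of the erythroid list, rose by 1.03 and 1.35 in females, and their list's summed level ran from 10.69 to 11.19 at 150, against 9.79 to 10.26 at dose 0. In males 0 of the 11 erythroid markers were called, and their summed level ran from 11.74 to 11.91 at 150, against 11.17 to 11.39 at dose 0. In males Cd5l and Adgre1 of the Kupffer list rose by 1.10 and 0.77, with a summed level of 13.40 to 13.96 at 150, against 12.54 to 13.25. S100a8 rose by 3.22 and Ptprc, a leukocyte marker, by 0.88 in males, while the stellate cell genes Lrat, Dcn and Reln fell by 0.88, 0.46 and 0.62. The summed level of the 8 neutrophil markers, S100a8 among them, was uneven in males at 150. It ran from 8.63 to 12.95, against 8.46 to 9.35 at dose 0, so the arrays overlapped. The part of these markers in the day 7 rises of Dclre1a, Gmnn and Rpa1 was not tested.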

How the data were processed

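Liver total RNA was extracted with Trizol, amplified and labelled with biotin, per the labels' protocols, and 1 array was deposited per sample. The authors deposited log2 values per probe set that were already comparable across arrays; how they were normalized is not stated in the labels read here, and array medians ran from 5.35 to 5.44. Of 45101 probe sets, 64 controls were left out, 34945 had 1 gene symbol, 932 had several and 9160 had none. Genes were read from their highest-mean probe set, with symbols from GEO's platform annotation, replaced by the RefSeq symbol where RefSeq held the same Entrez gene ID.

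The model, with 1 mean for each of the 24 groups, was run in limma 3.58.1 under R 4.3.3 with 72 residual and 4.39 prior degrees of freedom. P-values are two-sided and were adjusted by Benjamini-Hochberg over 18193 genes in each of 30 comparisons and a threshold of 0.05. Group means at or below 4.09, the highest lower quartile of an array, were treated as dim; no detection calls were used. SE is limma's standard error.

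The 47 genes, the role, pathway and marker lists and the tests were chosen with earlier results of these data known. Every array value is printed for the 2 largest changes per role among genes called in both sexes, for 6 further genes of the list, and for genes called at 75 or on day 7. Groups follow the titles, which give sex, dose and day. Data were also simulated with the same groups, in which sets of 50 genes were raised or lowered 1.5-fold or 2-fold. The noise was drawn separately for each gene and array, so effects shared by the genes of an array were not simulated. In a set of 50 genes changed 1.5-fold 40 were recovered, and in a set changed 2-fold 50 of 50. The 15 false calls are those of all sets together. Deviations of same-numbered samples at 150 and dose 0 correlated between -0.16 and 0.14, and those of other pairs between -0.26 and 0.27. In males on day 2 the ranges were 0.042 to 0.14 and -0.20 to 0.11. Same-numbered pairs were not all above 0.1, so the numbers were not taken to pair samples. This rule does not show that the samples are unpaired. Alternatives covered normalization, dim genes, probe set choice, arrays fitted, weights, a replicate block and leaving out arrays. A few of the listed pathway genes and markers were not analysed here. Promoter windows came from RefSeq, and figures were drawn with matplotlib 3.10.9.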

Additional observations from a re-analysis of the deposited data

Results flagged for a closer look

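Single samples lay far from the others of their group in 12 of 192 groups of 4 examined (6.25%). These covered the module score in all 24 groups and 21 genes at 150 and 0. Chance gives about 1 in 20 for independent groups, but the score and the genes share arrays, so these groups are not independent. Flags were more frequent among the score groups than among the groups of single genes. The gap to the nearest sample, as a share of the group's range, is given for each. In females on day 2 it was 0.915 for the score of replicate 2 at 75, which was high, 0.830 for the score of replicate 4 at 150, which was low, and 0.872 for Dut in that same array. In males on day 2 it was 0.855 for the low score of replicate 3 at 1.5, 0.837 for the high Mcm10 value of replicate 2 at 150 and 0.884 for the high Prim1 value of dose 0 replicate 4. In females on day 7 dose 0 replicate 4 was high, with 0.947 for the score and 0.955 for Mcm6. At 150 on day 7 in females it was 0.877 for the low Dbf4 value of replicate 4, 0.835 for the high Lig1 value of replicate 1 and 0.907 for the low Chek1 value of replicate 1. In males on day 7 it was 0.831 for the high score of replicate 1 at 75.

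The response at 150 differed between day 7 and day 2 for 26 genes in females and 5 in males. In females the differences, day 7 minus day 2 on the log2 scale, were -0.92 for Mcm2, -2.29 for Mcm5, -1.81 for Mcm6, -1.54 for Gins2, -1.82 for Dbf4, -1.53 for Prim1, -1.26 for Pole and -0.89 for Pcna. They were -1.16 for Rfc4, -1.57 for Lig1, -2.82 for Rrm2, -0.90 for Dut, -2.0 for Chek1, -2.18 for Fignl1, -1.3 for Uhrf1 and -1.64 for Tcf19, and 1.02 for Dclre1a. In males they were -0.75 for Pcna, -1.13 for Lig1, -2.21 for Rrm2, -1.80 for Fignl1 and -1.31 for Tcf19. The Fignl1 values are fitted ones that rest on a dim dose 0 mean, on day 7 in females and on day 2 in males, and are no measured sizes.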

How the results depend on the processing

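The rises at 150 on day 2 kept a count within 1.5 times under every alternative run, with 35 to 39 called genes in females and 27 to 30 in males when single arrays were left out. Fitting only the arrays of the sexes and days compared gave 0 called genes in females at 75 on day 2 and 0 on day 7, 1 in males at 150 on day 7, 16 and 13 day differences in females and males, and 3 for 150 against 75 in females. With the mean of all probe sets, the counts were 0 and 0 in females at 75 on day 2 and day 7, 1 in males at 150 on day 7 and 5 over the dose 0 comparisons (9 otherwise), and the male day 2 score difference was 0.62; Cdc45 in females turned to 0.24. With plain probe sets preferred, 1 gene was called in males at 150 on day 7, 2 for 150 against 75 in males and 5 at dose 0, and Chek1 turned to -0.046 in females and -0.18 in males. Array weights gave 2 in females and 1 in males at 150 on day 7 and 10 male day differences. Chosen after the data were seen, leaving out the 2 libraries that go against their labels gave 0 for 150 against 75 in males, and counting any probe set of a gene gave 3 male day differences. The median over genes gave a male day 2 score difference of 0.63. With single arrays left out, the counts were 0 to 1 in females at 75 on day 2, 0 to 2 on day 7, 1 to 2 at 150 on day 7, 0 to 1 for the day 7 sex difference, 15 to 33 for 150 against 75 in females and 0 to 6 in males, 0 to 7 in males at 75 on day 2, 1 to 3 at 150 on day 7 and 0 to 7 male day differences. The causes of these changes were not tested, except that fewer arrays enter some fits. A replicate block within sex and day moved no count by over 1.5 times (37 and 31 at 150 on day 2, 28 and 5 day differences, in females and males); 33 of 96 samples were closest to a sample of their own number, where chance gives 24. Dim genes have no measured fall.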
